A study of Mus musculus with 7 samples.

Results

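The collapsin response mediator proteins (CRMPs) are encoded by 5 genes in the mouse, Crmp1, Dpysl2, Dpysl3, Dpysl4 and Dpysl5, and all were found by symbol among the 55401 genes of the count files and all were among the 17621 genes with enough counts to be tested. Their ribosome-bound mRNA was measured in Purkinje cells of 4 nm3888-/- mice and 3 wild-type mice, 1 mouse per library, at the age of 3 weeks. Every mouse carried Rpl22fl/+ and PCP2-Cre, so that ribosomal protein RPL22 bore an HA tag in cells where the Pcp2 promoter had driven Cre, and polyadenylated RNA was recovered from whole cerebellum with an antibody to the tag (RiboTag). The nm3888 allele arose spontaneously on the NOD background and is an insertion of an ERV3 retrotransposon in intron 4 of Rreb1, a zinc finger transcription factor, and per the methods it was later bred onto C57BL6/J. The RiboTag line was B6N.129-Rpl22tm1.1Psam/J and the Cre line B6.129-Tg(Pcp2-cre)2Mpin/J, and the background of the mice bred from these lines and the mutant is not given in the sources used here. The labels hold 1 mutant library more than the methods state, and all were used. The library names fall into 2 series: nm3888-/- mice 1 and 2 and wild-type mice 1 and 2 are in the first and were all female, and nm3888-/- mice 3 and 4, both male, and wild-type mouse 3, a female, are in the second. Within the second series sex and genotype therefore cannot be told apart.

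The libraries held 18023017 to 107937386 counts, a 5.99-fold range, and the largest totals were those of the second series. Rreb1 itself was at 20.2, 19.1, 23.7 and 10.8 CPM (counts relative to the TMM-adjusted library size) in nm3888-/- mice 1 to 4, against 17.7, 17.4 and 14.4 CPM in wild-type mice 1 to 3. These groups overlapped, with mutants 1 to 3 above every wild type and mutant 4 below them (log2 fold change 0.20, adjusted p = 0.640, edgeR). The allele is described as a loss of the main Rreb1 transcript, so a fall would have been anticipated, and this count, which takes in all exons, did not show one. In all that follows nm3888-/- and wild type therefore name the libraries labelled so, and every direction rests on those labels. The Purkinje cell genes Pcp2, whose promoter drives the Cre, and Calb1, a calcium-binding protein, were the check of the cell type: Pcp2 was at 2975 to 4566 CPM in nm3888-/- mice and 2165 to 3752 CPM in wild-type mice, and Calb1 at 5861 to 9162 CPM in nm3888-/- mice and 6279 to 7700 CPM in wild-type mice. None of 18 Purkinje cell markers passed the test in either direction.

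CRMPs are cytoplasmic proteins of neurons that resemble the enzyme dihydropyrimidinase but are not known to share its activity. They assemble into tetramers and were first described downstream of semaphorin 3A, whose receptors, the neuropilins and plexins, lead to growth cone collapse. DPYSL2, also called CRMP2, binds tubulin dimers and favours microtubule growth in axons, and its phosphorylation by CDK5, GSK3B and ROCK weakens that binding. Expression of the family is generally highest while axons and dendrites grow, and in mice that lack DPYSL5 the dendrites of Purkinje cells develop abnormally.

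The genes lie on 4 chromosomes of the mouse genome build mm10. Crmp1 (chromosome 5, 37241940 to 37292133, forward strand) and Dpysl5 (chromosome 5, 30711564 to 30799375, forward strand) share a chromosome. For these 2 members RefSeq gene starts gave 3 windows of 250 bases upstream (build GRCm38.p6, forward strand), 1 for Dpysl5 and 2 for Crmp1. No window was at hand for Dpysl2 and Dpysl4, and Dpysl3 was left out of the sequence search. Dpysl5 fell in the mutants and Crmp1 did not pass the test. Capitals mark an E-box, CANNTG, which reads the same on both strands and is the core that basic helix-loop-helix factors bind. The windows are chr5:30711314-30711563 for Dpysl5, chr5:37241808-37242057 for the upstream Crmp1 start and chr5:37245514-37245763 for the second Crmp1 start.
Dpysl5: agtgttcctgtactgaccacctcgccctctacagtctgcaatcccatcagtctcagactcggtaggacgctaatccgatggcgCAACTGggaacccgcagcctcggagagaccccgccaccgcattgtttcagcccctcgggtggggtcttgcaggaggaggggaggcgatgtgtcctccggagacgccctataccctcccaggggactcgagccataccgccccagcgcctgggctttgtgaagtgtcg
Crmp1 upstream start: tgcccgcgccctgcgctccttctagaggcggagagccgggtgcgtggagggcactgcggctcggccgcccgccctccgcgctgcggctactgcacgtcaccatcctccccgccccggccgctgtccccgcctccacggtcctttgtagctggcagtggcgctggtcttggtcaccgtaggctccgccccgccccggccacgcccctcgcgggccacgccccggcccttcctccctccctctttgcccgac
Crmp1 second start: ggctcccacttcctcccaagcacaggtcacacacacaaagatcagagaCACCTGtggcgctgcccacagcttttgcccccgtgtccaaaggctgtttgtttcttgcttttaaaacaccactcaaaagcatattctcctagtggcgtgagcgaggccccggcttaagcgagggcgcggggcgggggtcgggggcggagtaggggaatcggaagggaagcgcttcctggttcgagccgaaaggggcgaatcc
The Dpysl5 window held 1 E-box, CAACTG, beginning 167 bases upstream of the start, and the window of the second Crmp1 start held 1, CACCTG, beginning 202 bases upstream. The upstream Crmp1 window held none. Among all 32851 windows of this length from RefSeq, 66.2% held at least 1 CANNTG. The form CAGATG, preferred by NEUROD1 and searched on both strands, was in none of the 3 windows and in 14.4% of all windows. CpG numbered 17 in the window of Dpysl5, 30 in the upstream window of Crmp1 and 16 in that of its second start, against a median of 6 over all windows. In that order these counts stood at percentiles 76.5, 94.1 and 74.6 of all windows. A match of letters is a description of the window and was not tested for binding.

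Of the 5 members 3 fell in nm3888-/- Purkinje cells (Dpysl2, Dpysl3 and Dpysl5), and none rose, by edgeR's quasi-likelihood test with an adjusted p under 0.05 over all tested genes. In the same comparison 5.95% of all tested genes fell and 2.58% rose, 8.54% in all. The first series alone called 2 members lower, Dpysl3 and Dpysl5, against 2.86% of all genes tested there, and the second alone 1, Dpysl3, against 2.84%. With the replicate number as a block 2 members, Dpysl3 (adjusted p = 0.00814, edgeR) and Dpysl5 (0.00648), were called lower, against 3.24% of all tested genes. Mutant 4 alone had replicate number 4, so in every block fit it did not inform the genotype difference. The libraries of the 2 genotypes did not overlap in the same 3 members, all lower in the mutants, against 8.92% of all tested genes that did not overlap and were lower. Fewer cells of a type and less RNA per cell cannot be told apart in such bulk samples.

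Dpysl3 (chromosome 18, 43320984 to 43438286, reverse strand), also called CRMP4, binds and bundles actin filaments and binds microtubules. It was at 6.39, 6.08, 8.95 and 7.77 CPM in nm3888-/- mice 1 to 4, against 16.7, 14.1 and 16.9 CPM in wild-type mice 1 to 3. All mutants were below all wild types, and the highest mutant was well under the lowest wild type. The log2 fold change was -1.18 (SE 0.13, 95% confidence interval -1.48 to -0.88, adjusted p = 9.87e-04, edgeR), which is a level 55.9% lower in the mutants, and by p-value it ranked 201 among all tested genes. It passed in the first series alone (log2 fold change -1.30, adjusted p = 0.00909) and in the second alone (-1.01, adjusted p = 0.0188). Among 18 alternatives its call was lost only when sex took the place of the library series in the edgeR fit (log2 fold change -1.35, adjusted p = 0.0564). Both male mice were mutants, 3 and 4, so in that fit only mutants 1 and 2 informed the genotype difference, against wild types of both series. The raw counts behind these values were 122 to 1733, the lowest in the family.

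Dpysl5 (CRMP5) is a more distant member that can form complexes with the others and in cultured neurons opposes the outgrowth promoted by DPYSL2. Its levels were 17.2, 16.7, 17.2 and 26.4 CPM in nm3888-/- mice 1 to 4, against 31.5, 34.1 and 34.5 CPM in wild-type mice 1 to 3. Mutants 1 to 3 lay within a narrow range and mutant 4 stood above them, but still below every wild type. The log2 fold change was -0.84 (SE 0.16, interval -1.19 to -0.48, adjusted p = 0.0126, edgeR), a level 43.9% lower in the mutants, and without mutant 4 it was -0.97 (adjusted p = 0.00185, edgeR). In the female mice of the first series the fold change was -0.95 on the log2 scale (adjusted p = 0.0106, edgeR), and in the second series alone it was -0.66 and did not pass (adjusted p = 0.138). Fits that left out wild-type mouse 2 (adjusted p = 0.0514, edgeR) or nm3888-/- mouse 2 (0.0619) lost the call, as did those with no series term (0.143) or with sex in its place (0.171).

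Dpysl2 (chromosome 14, 66802864 to 66868688, reverse strand) encodes the tubulin-binding CRMP2. It was at 132.4, 163.3, 122.8 and 142.3 CPM in nm3888-/- mice 1 to 4, against 218.8, 193.3 and 212.2 CPM in wild-type mice 1 to 3. The groups did not overlap, with mutant 2 the nearest to the wild types. The log2 fold change was -0.56 (SE 0.11, interval -0.82 to -0.30, adjusted p = 0.0186, edgeR), a level 32.2% lower in the mutants. Dpysl2 passed under 10 of 18 alternatives, against 13 for Dpysl5 and 17 for Dpysl3. Its call was lost with the replicate number as a block (log2 fold change -0.59, adjusted p = 0.0706, edgeR), in the first series alone (-0.48, 0.14), in the second series alone (-0.68, 0.0583), with no series term (0.0868), with sex in its place (0.291), and when wild-type mouse 1 (0.0655), wild-type mouse 3 (0.159) or nm3888-/- mouse 1 (0.0512) was left out. The fold change was negative under all 18 alternatives, between -0.68 and -0.47.

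Crmp1, which takes part in semaphorin 3A signalling and is a substrate of CDK5 and FYN, was at 370.3, 359.9, 414.9 and 364.0 CPM in nm3888-/- mice 1 to 4, against 275.1, 312.4 and 371.4 CPM in wild-type mice 1 to 3. The ranges overlapped through wild type 3. The log2 fold change was 0.21 (SE 0.10, interval -0.02 to 0.45, adjusted p = 0.248, edgeR), so the interval reached from slightly lower to 1.36 times the wild-type level. Crmp1 did not pass under any of 18 alternatives, with values of 0.07 to 0.32 on the log2 scale.

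Dpysl4 (chromosome 7, 139086001 to 139102704, forward strand), also called CRMP3, has been studied mainly for its part in dendrites of the hippocampus and as a target of the protease calpain. Its levels were 31.5, 33.8, 48.2 and 45.6 CPM in nm3888-/- mice 1 to 4, against 36.1, 30.2 and 43.7 CPM in wild-type mice 1 to 3. The values split by library series rather than by genotype, with all 3 libraries of the second series above all 4 of the first. The log2 fold change was 0.03 (SE 0.10, interval -0.20 to 0.26, adjusted p = 0.893, edgeR), and its sign changed under 5 of 18 alternatives.

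**Figure D1:**
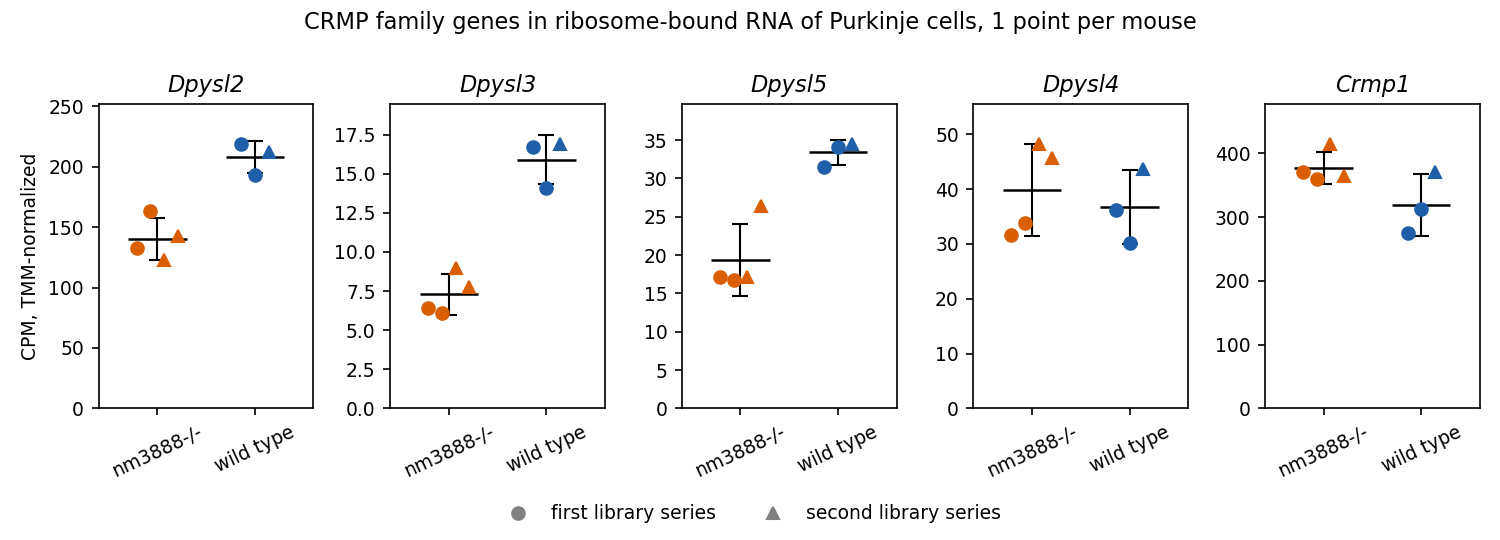
TMM-normalized CPM of each CRMP gene, 1 point per mouse, with nm3888-/- mice on the left and wild-type mice on the right of each panel and circles and triangles for the first and second library series. Horizontal lines and bars are the mean and SD (n = 4 and n = 3); Dpysl2, Dpysl3 and Dpysl5 show no overlap between genotypes, whereas Dpysl4 and Crmp1 do.

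**Figure D2:**
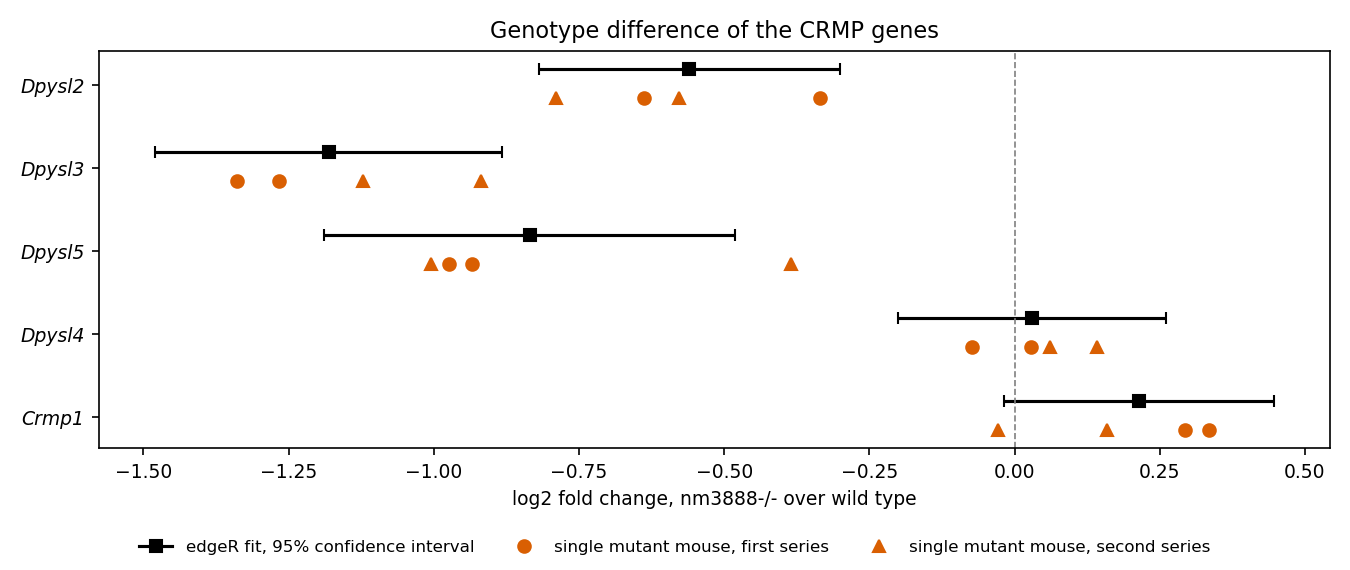
Log2 fold change of nm3888-/- over wild type for each CRMP gene, with the edgeR estimate and 95% confidence interval as squares and bars and each mutant mouse against the mean of the wild-type mice of its own series as circles (first series) and triangles (second series). All 4 mutants lie left of 0 for Dpysl2, Dpysl3 and Dpysl5, and the intervals of Dpysl4 and Crmp1 span 0.

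Each mutant can also be set against the wild types of its own series. For Dpysl3 these log2 ratios were -1.27 and -1.34 in mutants 1 and 2 of the first series and -0.92 and -1.12 in mutants 3 and 4 of the second. For Dpysl5 they were -0.93, -0.97 and -1.0 in mutants 1 to 3 and -0.38 in mutant 4, and for Dpysl2 they were -0.64, -0.33, -0.79 and -0.58 in mutants 1 to 4. Thus the 3 genes were lower in 4 of 4 mutants, by amounts that differed most for Dpysl5. In an edgeR fit with a series by genotype term no member had a difference between the series that passed, adjusted over all genes or at an unadjusted p under 0.05, where 14 of all genes (0.0795%) passed the first and 1017 the second threshold. The intervals of that difference were wide, from -0.43 to 1.02 on the log2 scale for Dpysl5 and from -0.75 to 0.34 for Dpysl2. The second series held only 1 wild type, which fits of that series alone assume to vary like the mutants. Differences of any size within these intervals remained compatible with the data.

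Levels of different genes were compared as CPM per kb of exon length. In nm3888-/- mice Crmp1 was highest at 53.5 ± 3.61 CPM per kb, then Dpysl2 at 31.0 ± 3.84, Dpysl4 at 6.65 ± 1.39, Dpysl5 at 2.63 ± 0.637 and Dpysl3 at 1.10 ± 0.20 (SD, n = 4), with no overlap between neighbours in that order. In wild-type mice Dpysl2 at 46.0 ± 2.94 CPM per kb and Crmp1 at 45.4 ± 6.89 came first with overlapping ranges, followed by Dpysl4 at 6.13 ± 1.13, Dpysl5 at 4.53 ± 0.219 and Dpysl3 at 2.40 ± 0.237 (SD, n = 3), which did not overlap with each other. The members thus spanned from among the most abundant tested genes to the lower ranks: in wild type Dpysl2 was at the 92.6th percentile of tested genes per kb and Dpysl3 at the 43.6th. The order of Crmp1 and Dpysl2 in wild-type mice depends on the exon length, 7046 bases for Crmp1 and 4520 bases for Dpysl2. Before the division Crmp1 led there too, at 319.6 ± 48.6 CPM against 208.1 ± 13.3 CPM for Dpysl2 (SD, n = 3).

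The sum of the family and its composition were described per mouse. The 5 members together were at 90.4, 96.1, 97.8 and 95.5 CPM per kb in nm3888-/- mice 1 to 4, against 100.3, 98.9 and 114.2 CPM per kb in wild-type mice 1 to 3. On this scale all mutants lay below all wild types, with mutant 3 close to wild type 2. Without division by exon length the groups overlapped, with sums of 557.7 to 612.1 CPM in nm3888-/- mice and 578.2 to 678.7 CPM in wild-type mice. The shares that follow are of the sum in CPM per kb. Crmp1 made up 56.4 ± 3.33% in nm3888-/- mice and 43.3 ± 3.85% in wild-type mice, and Dpysl2 32.7 ± 4.02% in nm3888-/- mice and 44.2 ± 3.68% in wild-type mice (SD, n = 4 and n = 3). Dpysl4 took 6.99 ± 1.31% in nm3888-/- mice and 5.84 ± 0.662% in wild-type mice. The smaller shares were those of Dpysl5, at 2.77 ± 0.662% in nm3888-/- mice and 4.35 ± 0.302% in wild-type mice, and of Dpysl3, at 1.16 ± 0.186% in nm3888-/- mice and 2.30 ± 0.189% in wild-type mice. The shares follow from the values above and were given no test of their own.

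**Figure D3:**
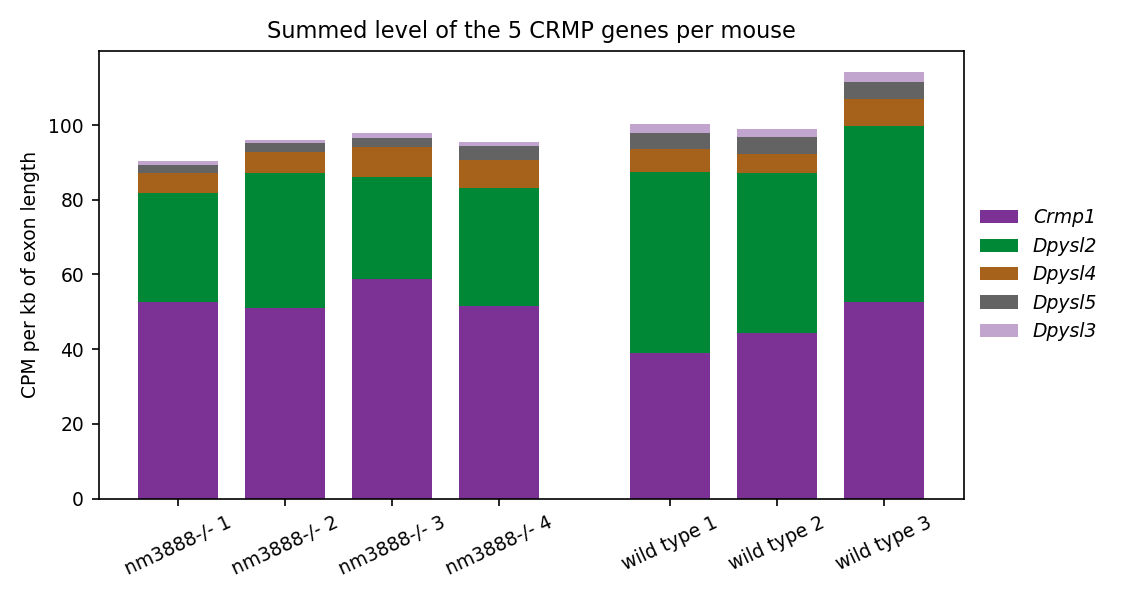
Stacked level of the 5 CRMP genes in each mouse, in CPM per kb of exon length, with nm3888-/- mice on the left and wild-type mice on the right. The Crmp1 segment is the largest in every mutant, whereas in wild-type mice the Crmp1 and Dpysl2 segments are of similar height.

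Ratios between 2 members within a library do not depend on its scaling. Dpysl2 CPM over Crmp1 CPM was 0.357, 0.454, 0.296 and 0.391 in nm3888-/- mice 1 to 4, against 0.796, 0.619 and 0.572 in wild-type mice 1 to 3. Dpysl3 over Dpysl4 was 0.203, 0.180, 0.186 and 0.170 in the mutants, against 0.462, 0.466 and 0.387 in the wild types. All mutant ratios lay below all wild-type ratios, as they did for Dpysl5 over Dpysl4, with 0.356 to 0.579 in the mutants and 0.789 to 1.13 in the wild types. Each pair set a member that fell over another that did not pass, so these ratios in part restate the genotype differences above.

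After the mean of each library series was removed, log2 CPM of Dpysl2, Dpysl3 and Dpysl5 went together over the 7 libraries (Pearson r of 0.87 to 0.88 for each pair), and Crmp1 went the other way (r of -0.76 to -0.85 with these 3). Dpysl4 followed none of them (r of -0.28 to -0.04). The points share the genotype and the series, so these values restate the genotype difference in part, and no p is given. By the same measure, among 11169 genes with a mean over 5 CPM, the genes nearest to Dpysl3 were Soat1, which esterifies cholesterol (r = 0.999, log2 fold change -1.24), Cyp4x1, a cytochrome P450 (-2.93), and Zfp239, a zinc finger protein (-1.02), and all 3 fell (adjusted p of 9.18e-04, 3.30e-04 and 0.00212, edgeR). Nearest to Dpysl5 were Nefm, a neurofilament subunit (r = 0.996), Phkg2 and Prob1, of which Prob1 fell (log2 fold change -0.85, adjusted p = 0.0138, edgeR) and Nefm, at -0.37, just missed the threshold (0.0518). For Dpysl2 they were D030056L22Rik, the growth factor Fgf7 and Tmem248 (r of 0.991 to 0.997), and Fgf7 fell (-0.56, adjusted p = 0.0229, edgeR). The calls of Prob1 and of Fgf7 were each lost in 4 of 7 fits that left out 1 mouse, and Fgf7 did not pass with the replicate block (adjusted p = 0.0804, edgeR).
The genes nearest to Crmp1 were Mto1, Gm4887 and Xab2 (r of 0.984 to 0.988) and those nearest to Dpysl4 were Frmpd4, Myt1 and Ift88 (r of 0.966 to 0.993), none of which passed the test. Gm4887 ranged from 0.0221 to 17.8 CPM in the mutants and from 0.0195 to 14.8 CPM in the wild types, so that its likeness rests on values after removal of a large series difference.

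Of the 10 nearest tested genes, 1 on each side of each member, 3 passed the test, against 8.54% of all tested genes. Beside Dpysl2, Pnma2 at 42.5 kb fell (log2 fold change -1.48, adjusted p = 0.00182, edgeR), with 2.16 ± 0.390 CPM in nm3888-/- mice and 6.0 ± 0.215 CPM in wild-type mice (SD, n = 4 and n = 3), and on the other side Adra1a, an adrenergic receptor 31.7 kb away, rose (1.72, adjusted p = 0.0487) at levels under 1 CPM. Next to Crmp1, which did not pass, Gm1043 at 12.4 kb fell (-0.88, adjusted p = 0.0113, edgeR). With 1 mouse left out at a time Pnma2 passed in all 7 fits, whereas Gm1043 lost its call in 3, without any 1 of the wild types. Adra1a passed in none of the 5 fits in which it had enough counts, with 0.79 to 2.07 on the log2 scale. With the replicate block Gm1043 (adjusted p = 0.0568, edgeR) and Adra1a (0.129) did not pass. Evc overlaps the end of Crmp1 on the opposite strand, at 12 to 98 counts per library, and the reads were counted by strand. Both neighbours of Dpysl3 (Stk32a and Gm3650) and of Dpysl5 (Cenpa and Mapre3) missed the threshold, as did both of Dpysl4, where Jakmip3 was at -0.53 (adjusted p = 0.0741, edgeR) and Stk32c at 0.68 (0.147). Among these neighbours, genes of the JAKMIP and STK32 families were beside Dpysl3 (Stk32a) and Dpysl4 (Jakmip3 and Stk32c). Of the 5 tested genes of the 2 families none rose, and Jakmip2, not among the nearest genes, fell (-0.45, adjusted p = 0.0273, edgeR). That call was lost in 6 of the 7 fits and with the replicate block (adjusted p = 0.0843, edgeR). The members share only short runs of sequence, at most 29 bases between the annotated transcripts of any pair.

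Upstream of the CRMPs, none of 7 class 3 semaphorin ligands passed the test, although all 7 had a positive fold change (median 0.32 on the log2 scale, against 0.03 over all tested genes). Their sums overlapped, at 75.6 to 108.9 CPM in nm3888-/- mice and 62.5 to 85.5 CPM in wild-type mice. For Sema3g the fitted value was 0.09 (SE 0.49), with a lower mean in nm3888-/- mice (1.32 CPM) than in wild-type mice (1.53 CPM). Sema3a, the ligand that gave the family its name, was at 80.9 ± 14.0 CPM in nm3888-/- mice and 66.0 ± 11.3 CPM in wild-type mice (SD, n = 4 and n = 3, adjusted p = 0.315, edgeR). With the replicate block 1 ligand, Sema3f, passed as higher (log2 fold change 1.01, adjusted p = 0.0293, edgeR). None of 10 semaphorin receptors and coreceptors passed either. The neuropilin Nrp2 was lower in every mutant than in any wild type and just missed the threshold (log2 fold change -0.64, adjusted p = 0.0598, edgeR). Its means were 2.71 ± 0.226 CPM in nm3888-/- mice and 4.16 ± 0.596 CPM in wild-type mice. Nrp1 was at 2.58 ± 1.71 CPM in nm3888-/- mice and 1.28 ± 0.218 CPM in wild-type mice (adjusted p = 0.316, edgeR). Plxna4, a plexin, was at 95.7 ± 7.27 CPM in nm3888-/- mice and 109.2 ± 12.0 CPM in wild-type mice, and Cntn2, a cell adhesion molecule of axons, at 63.4 ± 13.2 CPM in nm3888-/- mice and 48.8 ± 7.47 CPM in wild-type mice.

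Of 16 genes for kinases of CRMPs, with their subunits and activators, 3 fell and 1 rose, against 5.95% and 2.58% of all tested genes. Cdk5r1, which encodes the CDK5 activator p35, was at 111.7 to 149.8 CPM in nm3888-/- mice and 224.2 to 267.9 CPM in wild-type mice, with no overlap (log2 fold change -0.88, SE 0.08, adjusted p = 4.45e-04, edgeR). Camk2a, a calcium-dependent kinase subunit, was at 157.6 to 386.0 CPM in nm3888-/- mice and 710.8 to 819.1 CPM in wild-type mice (-1.56, SE 0.20, adjusted p = 0.00218). Both were lower in every mutant than in any wild type, and both passed whichever mouse was left out. Cdk5 itself fell by less (-0.47, adjusted p = 0.0308, edgeR) with overlapping libraries, and its call was lost in 4 of 7 fits that each left out 1 mouse. Rock1, a serine/threonine kinase, rose (0.73, adjusted p = 0.0320, edgeR), and its call was lost in 6 of those 7 fits. With the replicate block 2 of the 4 calls were lost, those of Cdk5 (adjusted p = 0.0785, edgeR) and Rock1 (0.0965). Gsk3b, at -0.25 (adjusted p = 0.293, edgeR), and Fyn, at 0.07 (0.680), did not pass.

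Among 8 phosphatase and protease genes Ppp2r2b, a brain-enriched regulatory subunit of protein phosphatase 2A, fell (-0.88, SE 0.09, adjusted p = 5.37e-04, edgeR), and its 22.7 to 31.1 CPM in nm3888-/- mice did not overlap with the 42.9 to 54.1 CPM of wild-type mice. Of 20 genes for partner proteins Klc2, a kinesin light chain (-0.50, adjusted p = 0.0185, edgeR), and Mical2, an actin-oxidising enzyme (-0.49, 0.0407), fell, and Cyfip1, a subunit of the WAVE complex (0.53, 0.0465), rose, with libraries that overlapped in all 3. With 1 mouse left out, the calls of Mical2 and Cyfip1 were lost in 6 of 7 fits and that of Klc2 in 3 (without wild-type mice 2 or 3 or nm3888-/- mouse 2). With the replicate block none of the partner genes was called (adjusted p of 0.0605 for Klc2, 0.134 for Mical2 and 0.0628 for Cyfip1, edgeR). The 3 genes of pyrimidine breakdown related to the CRMPs in sequence or pathway (Dpys, Dpyd and Upb1) had too few counts to be tested, with a sum of 0.298 to 0.686 CPM in nm3888-/- mice and 0.237 to 0.273 CPM in wild-type mice.

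Genes of microtubules and of the growth of neurites were the list with the most calls. Of 14 tubulins, stathmins and microtubule-associated proteins 9 fell and none rose, with a median of -0.58 on the log2 scale. Over all tested genes 5.95% fell and 2.58% rose. Stmn4, a neuronal stathmin that binds tubulin dimers, was at 23.1 to 43.6 CPM in nm3888-/- mice and 333.8 to 499.0 CPM in wild-type mice (-3.66, SE 0.14, adjusted p = 4.83e-06, edgeR). The tubulins Tubb2a (-0.93) and Tuba1b (-0.67) and the stathmin Stmn2 (-0.67) fell too, with adjusted p of 4.08e-04, 0.00184 and 0.00475 (edgeR), and none of these overlapped between genotypes. Stmn2 missed the threshold without wild-type mouse 3 (adjusted p = 0.0574, edgeR), and Stmn4, Tubb2a and Tuba1b passed whichever mouse was left out. The count of 9 became 5 to 10 with 1 mouse left out, and was lowest without wild-type mouse 3. Mapt, which encodes tau, did not pass (0.10, adjusted p = 0.586, edgeR). This list was drawn up with the fall of several of its members known, so its count is a description. Genes of immature neurons did not move as 1 group: of 12 tested, Tubb3, a neuronal tubulin, fell (-1.35, adjusted p = 1.18e-04, edgeR), Marcksl1, an actin-binding protein, rose (0.87, 0.0208, lost in 3 of 7 fits with 1 mouse left out), and Dcx, Sox4, Sox11, Stmn1 and Gap43 did not pass.

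**Figure D4:**
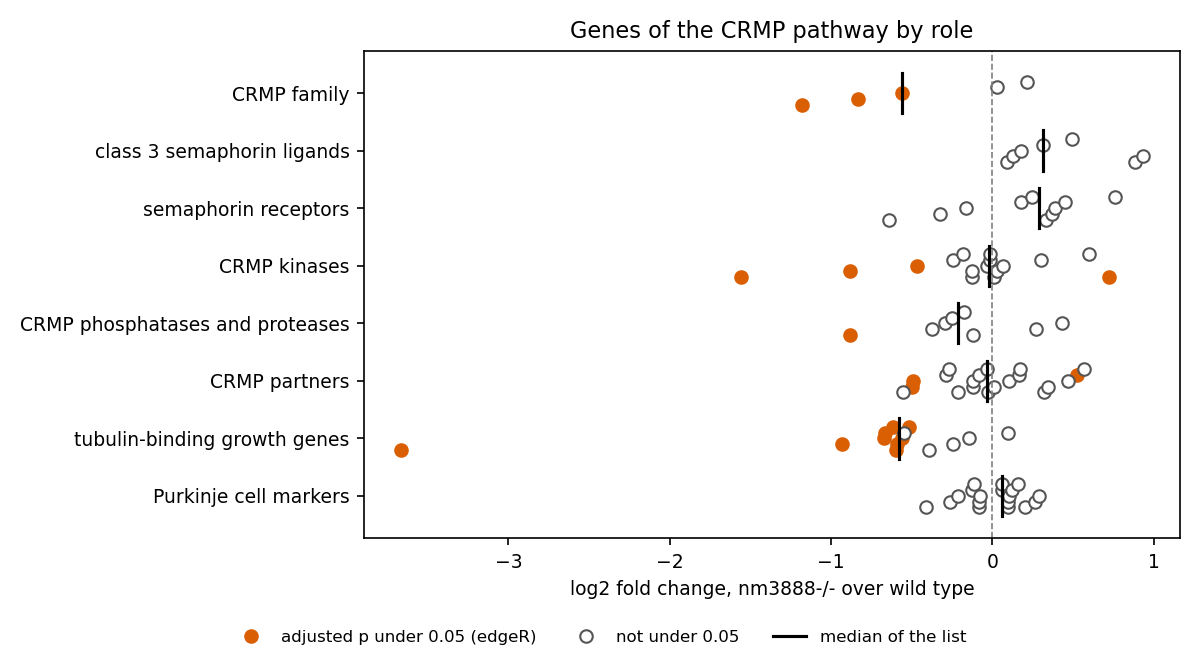
Log2 fold change of nm3888-/- over wild type for the tested genes of 8 lists, 1 point per gene, filled where the adjusted p of the edgeR test was under 0.05, with the median of each list as a vertical line. Calls lie mostly left of 0 in the CRMP family (3 of 5) and among the tubulin-binding growth genes (9 of 14), and no Purkinje cell marker (of 18) was called.

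Markers of other cells were present at low to moderate levels and most had positive fold changes. The 13 granule cell markers summed to 680.4 to 1355 CPM in nm3888-/- mice and 555.1 to 660.4 CPM in wild-type mice, with none called, a positive fold change in 12 and a median of 0.51 on the log2 scale. The 13 oligodendrocyte markers summed to 693.6 to 1245 CPM in nm3888-/- mice and 510.3 to 742.2 CPM in wild-type mice (median 0.54, with Cnp and Cldn11 called higher), and the 13 of Bergmann glia and astrocytes to 497.1 to 872.6 CPM in nm3888-/- mice and 545.0 to 600.6 CPM in wild-type mice (median 0.61, with Gfap higher and Hopx lower). With 1 mouse left out these calls were lost in 5 of 7 fits for Cnp, 6 for Cldn11, 3 for Hopx and 1 for Gfap. With the replicate block Cnp, Cldn11 and Hopx did not pass (adjusted p of 0.0546, 0.0583 and 0.0557, edgeR), and the granule cell gene Fat2 passed as higher (0.57, adjusted p = 0.0448). The medians of these lists were positive, as were the fold changes of Crmp1 (0.21) and Dpysl4 (0.03), whereas those of Dpysl2, Dpysl3 and Dpysl5 were negative.
Interneuron markers summed to 111.9 to 175.2 CPM in nm3888-/- mice and 104.6 to 222.1 CPM in wild-type mice (median 0.41), endothelial and pericyte markers to 52.4 to 74.99 CPM in nm3888-/- mice and 33.5 to 52.5 CPM in wild-type mice (median 0.28), and the 10 microglial markers to 8.88 to 22.5 CPM in nm3888-/- mice and 7.87 to 17.3 CPM in wild-type mice (median 0.63 over the 8 tested). No marker of the lists was at 0 in every library. When the libraries were scaled to the 18 Purkinje cell markers in place of TMM, Dpysl3 was at -1.24, Dpysl5 at -0.89 and Dpysl2 at -0.62 on the log2 scale, and all 3 still passed (adjusted p of 9.12e-04, 0.0148 and 0.0211, edgeR). The part of other cells in the values of the CRMP genes was not tested for any member.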

How the data were processed

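RNA bound to HA-tagged ribosomes was sequenced from cerebella of 4 nm3888-/- and 3 wild-type mice. The authors removed duplicates and trimmed reads with fastp, aligned them to mm10, and used featureCounts (2.0.1 in the headers) to assign fragments with both ends mapped to GENCODE M25 genes, reverse-stranded. The headers point to a Bowtie2 directory for the first library series and to a STAR directory for the second, whereas the methods name Bowtie2 alone. The deposited values are raw counts with no normalization, 18023017 to 107937386 per library. The methods name batch as a covariate of DESeq2, without its libraries, so the library series, read from the file names, was used.

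Genes that passed filterByExpr were compared with the quasi-likelihood test of edgeR (version 4.0.16, with limma 3.58.1 and R 4.3.3), TMM normalization and the library series as a term. An adjusted p under 0.05 (Benjamini-Hochberg over all 17621 tested genes) was called. CPM are scaled by TMM, SD are over mice, and levels between genes were divided by the exon length in the files. Scripts were tested on simulated data. Of the gene IDs 99.53% matched a symbol. Promoter sequences came from RefSeq (GRCm38.p6) and transcript comparisons from GENCODE M21.

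The members and the 17 gene lists were chosen with earlier results of these data known. The genes named are the members, up to 4 called genes per direction of each list with the smallest p (or the 2 most abundant where none was called), the nearest tested gene on each side of a member, the 3 genes with the most similar pattern, Rreb1, Pcp2 and Calb1; further list genes named as examples were chosen after their values were seen. Labels give both genotypes replicate numbers: deviations of same-numbered libraries from their group means correlated at 0.914, 0.946 and 0.960, so the number was fitted as a block, but libraries of different number in the same series correlated as well, and within the first series the difference between mice 1 and 2 correlated at 0.0352 between genotypes. Mutant 4 has no wild type of its number, so the block leaves it out of the genotype difference. Alternatives were other scalings (RLE, library totals, Purkinje cell markers), no filter, no series term, sex in its place, the block, each series alone, counts thinned to the smallest total, each mouse left out, and DESeq2 (version 1.42.0).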

Additional observations from a re-analysis of the deposited data

Results flagged for a closer look

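Of 10 sets of mutant values examined (CPM and share of the family level for each member), 2 held a library that stood apart by Dixon's criterion for 4 samples, and chance gives about 1 in 20. Both were Dpysl5 in nm3888-/- mouse 4: its level of 26.4 CPM was above the 16.7 to 17.2 CPM of the other mutants, with a gap of 0.952 of the range, and its share of the family level was 3.75%, with a gap of 0.844. The 2 values share the same counts. Both lay below the values of every wild-type mouse.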

How the results depend on the processing

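Dpysl3, Dpysl5 and Dpysl2 kept a negative fold change under all 18 alternatives and passed under 17, 13 and 10 of them; Crmp1 kept a positive one and never passed. Over all genes 1504 were called, and 309 without the series term, 102 with sex in its place, 812 with the replicate block, 679 in the first series alone and 599 to 1425 when each mouse was left out; DESeq2 called 2048. Of the members 3 were called, and 1 without the series term, 0 with sex in its place and 1 in the second series alone. Both males were nm3888-/- mice, 3 and 4. The fit with sex therefore rests its genotype difference on nm3888-/- mice 1 and 2 and on wild types of both series. It is not a test of a sex effect. The cause of these shifts was not tested.

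Without the series term Dpysl2 was at -0.57 (log2) and Dpysl5 at -0.78, and neither passed. The fit with sex instead of the series gave -0.49 for Dpysl2, -1.35 for Dpysl3 and -0.98 for Dpysl5, none past the threshold. With the replicate block Dpysl2 was at -0.59 and lost its call (adjusted p = 0.0706, edgeR), and no other member changed its call; blocked values of other genes that changed stand beside them above. Dpysl2 was at -0.48 in the first series alone and -0.68 in the second, and Dpysl5 at -0.66 in the second, again past no threshold. Leaving out each mouse gave -0.66 to -0.48 for Dpysl2, -1.30 to -1.08 for Dpysl3, -0.97 to -0.75 for Dpysl5, -0.024 to 0.12 for Dpysl4 and 0.16 to 0.31 for Crmp1. Dpysl4 was at -0.027 when scaled to Purkinje cell markers, -0.17 with the sex term and -0.019 in the first series alone.

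Without division by exon length the shares were 64.6% in nm3888-/- and 51.9% in wild-type mice for Crmp1, and 24.1% in nm3888-/- and 34.1% in wild-type mice for Dpysl2, and in wild-type mice 2.60% for Dpysl3 and 5.46% for Dpysl5. Of all calls 69.75% were lower, against 51.99% with library totals (which moved the median gene to 0.12), 81.23% without the series term, 83.33% with sex and 46.51% in the second series alone.

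Genes that did not pass changed sign. With sex in place of the series Itpr1 was at -0.10, Car8 -0.022, Flt1 -0.052, Gm3650 0.38, Mto1 -0.0008, Xab2 -0.30, Myt1 -0.18, Ift88 -0.31 and Calb1 -0.045. In the first series alone Flt1 was at -0.23, Gm3650 0.11, Frmpd4 -0.098, Myt1 -0.033 and Ift88 -0.013, and with no series term Gm4887 was at -0.082 and Frmpd4 -0.029. With 1 mouse left out at a time the ranges were -0.012 to 0.24 for Itpr1, -0.091 to 0.30 for Car8, -0.23 to 0.42 for Flt1, -0.77 to 0.10 for Gm3650, -0.10 to 0.31 for Frmpd4, -0.036 to 0.22 for Myt1, -0.015 to 0.31 for Ift88, -0.031 to 0.36 for Rreb1 and -0.0055 to 0.23 for Calb1. The series by genotype term of Dpysl4 was -0.027 when scaled to Purkinje markers and -0.026 to 0.24 when each mouse was left out, and that of Dpysl5 -0.046 to 0.58.

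Precision was limited by 3 and 4 mice, by the single wild type of the second series, and for Dpysl3 by counts as low as 122.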
